A study of Drosophila melanogaster with 3 samples.

Results

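Peaks of pb-GFP at the promoter of a single gene were 1077 of the 2740 peaks that passed the authors' reproducibility threshold on the dm6 genome (39.3%). A peak belonged to this class when a transcription start site of exactly 1 protein-coding gene was found within 1000 bp of its summit. A further 656 peaks lay within reach of the start sites of several genes (shared promoters), and 1007 lay away from promoters. Chromatin immunoprecipitation and sequencing (ChIP-seq) was carried out with an antibody against green fluorescent protein (GFP) on whole Drosophila melanogaster embryos of mixed sex, aged 0 to 24 h. They came from a transgenic line that stably expresses pb fused at its C terminus to GFP, and chromatin was sonicated to 200 to 800 bp. The 3 biological replicates form 1 group with no second condition, so the data address where the tagged protein was recovered and how well the libraries repeated each other. No untagged embryos and no control track were analysed here, so recovery that depends on pb-GFP cannot be told apart from recovery that does not.

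The Hox gene proboscipedia (pb) stands in the Antennapedia complex, and its homeodomain protein is known for specifying the adult mouthparts. Promoters of fly genes hold short DNA elements that general and sequence-specific factors bind. The TATA box, the initiator and the GAGA element are typical of developmentally regulated genes, whereas the DNA replication-related element (DRE), Motif 1 and Motif 7 are typical of genes active in most cells. Many developmental genes have several alternative promoters spread along a long transcription unit, and many genes of general function stand head to head and share one promoter region.

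The DNA under the strongest single-gene promoter peaks is shown first, as each summit with 50 bp to either side, read 5′ to 3′ on the strand of the gene. The 8 strongest peaks whose window overlapped no annotated exon were taken, of 529 that qualified, leaving out an arm whose sequence is not shown. Coordinates are those of dm6 (Release 6). The windows were those of CG14100 (chr3L:19590582-19590682, minus strand), Lk6 (chr3R:11761008-11761108, minus strand), CG9663 (chr2L:3302131-3302231, minus strand), ph-p (chrX:2137292-2137392, minus strand), CG31145 (chr3R:23669810-23669910, minus strand), larp (chr3R:28326555-28326655, minus strand), Atf3 (chrX:1275434-1275534, minus strand) and CG13921 (chr3L:1746716-1746816, plus strand). CG18549 (chr3R:12449134-12449234, plus strand) and Reph (chr2L:3804722-3804822, plus strand) follow as the strongest such windows with a homeodomain word and with an E-box. CG9743 (chr3R:30203413-30203513, minus strand), kibra (chr3R:14724286-14724386, minus strand) and Hgsnat (chrX:4919636-4919736, plus strand) are the strongest with the GAGA, DRE and Motif 1 words, and were added after the motif shares were seen. Capitals mark matches, on either strand, to the words given with the motif results.
CG14100: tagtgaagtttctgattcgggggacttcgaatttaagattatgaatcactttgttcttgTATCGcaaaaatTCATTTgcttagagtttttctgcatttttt
Lk6: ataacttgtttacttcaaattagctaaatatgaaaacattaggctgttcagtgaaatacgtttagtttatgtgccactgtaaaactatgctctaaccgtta
CG9663: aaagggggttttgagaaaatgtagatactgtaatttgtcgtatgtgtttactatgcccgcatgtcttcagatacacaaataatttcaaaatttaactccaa
ph-p: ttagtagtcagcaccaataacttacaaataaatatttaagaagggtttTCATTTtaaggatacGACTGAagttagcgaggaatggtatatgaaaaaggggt
CG31145: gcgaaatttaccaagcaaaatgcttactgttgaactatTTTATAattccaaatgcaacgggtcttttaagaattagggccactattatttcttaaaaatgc
larp: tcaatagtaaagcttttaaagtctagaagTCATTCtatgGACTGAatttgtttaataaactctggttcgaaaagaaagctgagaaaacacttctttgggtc
Atf3: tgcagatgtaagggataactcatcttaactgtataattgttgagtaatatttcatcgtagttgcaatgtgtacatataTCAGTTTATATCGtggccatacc
CG13921: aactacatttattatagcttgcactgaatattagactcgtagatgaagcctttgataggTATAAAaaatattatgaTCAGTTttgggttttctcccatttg
CG18549: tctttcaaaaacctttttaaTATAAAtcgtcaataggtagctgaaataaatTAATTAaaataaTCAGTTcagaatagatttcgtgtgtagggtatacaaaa
Reph: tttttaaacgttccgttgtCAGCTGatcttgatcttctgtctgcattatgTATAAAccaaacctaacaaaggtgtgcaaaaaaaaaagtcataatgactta
CG9743: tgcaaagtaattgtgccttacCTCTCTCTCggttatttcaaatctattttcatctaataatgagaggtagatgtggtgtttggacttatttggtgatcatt
kibra: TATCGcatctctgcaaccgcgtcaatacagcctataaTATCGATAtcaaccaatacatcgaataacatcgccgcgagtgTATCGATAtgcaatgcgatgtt
Hgsnat: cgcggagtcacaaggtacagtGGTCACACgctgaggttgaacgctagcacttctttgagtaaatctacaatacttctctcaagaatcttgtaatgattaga
The printed windows of Lk6 and CG9663, with 50 bp to either side of the summit, held none of the 13 motifs searched. In the wider window of 100 bp to either side, used for the motif results, both held the GAGA word, and Lk6 also held a Hox-Exd word. The printed windows of the other 6 genes among the strongest 8 held initiator, TATA or CGATA words only. The kibra window held the DRE word more than once.

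The signal value of a peak is the authors'. The sources used here do not say how it was calculated and scaled, and it served only as a rank within each list, with 1 as the strongest. The strongest single-gene promoter peak was that of px (plexus, a gene named for its effect on wing veins), at chr2R:22514103-22514509, and it ranked 3, 3 and 3 in replicates 1, 2 and 3. Its summit lay in an intron of px, 203 bp upstream of the most internal of 3 groups of start sites. The peak of CG14100 ranked 2, 4 and 4, and its summit lay between genes, 108 bp upstream of the only start site. That of Lk6, a kinase of the translation factor eIF4E, ranked 5, 7 and 10 and lay 979 bp upstream of an internal start site. These 3 peaks were among the 10 strongest regions of every library.

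Among the next strongest, CG1888 ranked 7, 8 and 13 with its summit 223 bp upstream, and CG9663 ranked 8, 17 and 19 with its summit 949 bp inside the gene. ph-p (polyhomeotic proximal), which encodes a Polycomb group subunit, ranked 17, 9 and 15 with its summit 487 bp upstream of an internal start site. The summit of Atf3, a bZIP transcription factor, lay 200 bp upstream of its only group of start sites, and that of CG31145 lay 1 bp farther from its own. CG31145 ranked 33, 18 and 12, and Atf3 ranked 25, 22 and 23. larp, which encodes a La-related RNA-binding protein, ranked 35, 21 and 20 with its summit 341 bp upstream of the last of 5 groups of start sites. The peak of Sox14, an HMG-box transcription factor, ranked 20, 23 and 39 with its summit 243 bp upstream. Each of these genes therefore kept a place among the 39 strongest regions in all 3 libraries.

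The other 10 of the 20 strongest were CG13921, GstE13 (a glutathione S-transferase), Rtnl1 (a reticulon that shapes the endoplasmic reticulum), MFS10, gish (a casein kinase I gamma), CG9743, Alg3 (a mannosyltransferase of N-glycan assembly), CG18549, Reph and mub (a KH-domain RNA-binding protein). Ranks of these 10 in single libraries ran from 27 to 114, and the lowest was that of mub in replicate 3, where it ranked 114 against 50 in replicate 1 and 46 in replicate 2. Of the 20 summits, that of GstE13 lay 84 bp downstream of its start site, and those of CG9663 and mub lay 949 and 911 bp downstream, while the other 17 lay upstream.

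**Figure D1:**
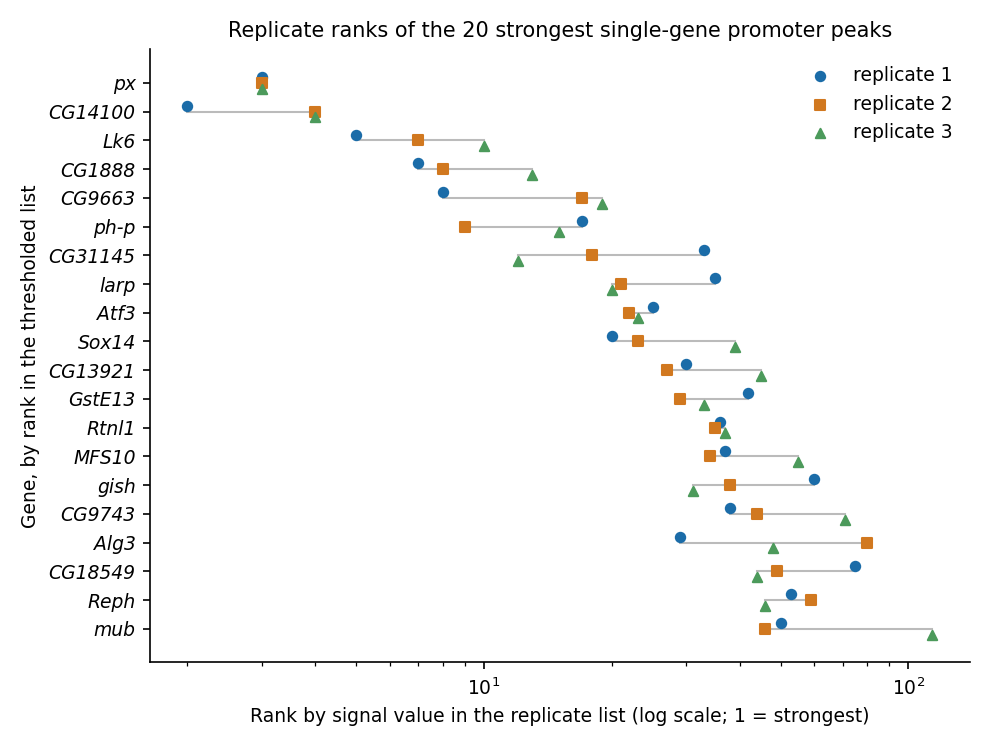
Rank by signal value (log scale, 1 is the strongest) of the 20 strongest single-gene promoter peaks found in all 3 replicate lists, with 1 symbol per library and a line from the lowest to the highest rank. px stands at rank 3 in every library, and Alg3 has the widest line on this scale, with 29, 80 and 48.

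Most of the single-gene promoter peaks had a matching region in the full list of every library, which also holds background regions. Of the 1077 peaks, 941 (87.4%, exact Clopper-Pearson 95% interval 85.2 to 89.3%) had a summit within 100 bp in all 3 lists of 30000 regions, 124 in 2 lists and 12 in 1 list. This count is a description, since the thresholded list was made from the same libraries. The share found in all lists was 88.6% for shared promoters and 89.3% away from promoters. The interval covers counting error over peaks only. The libraries placed 68.9%, 79.1% and 72.2% of the single-gene peaks among their own 2740 strongest regions (73.4% ± 5.21, SD, n = 3), against 78.0%, 78.8% and 71.2% of the shared promoter peaks (76.0% ± 4.20) and 68.5%, 82.6% and 70.3% of the peaks away from promoters (73.8% ± 7.68). The ranges of the 3 classes overlapped. Among the 2740 strongest regions of all 3 libraries at once were 491 of the single-gene peaks (45.6%), and 24 were among those of none. The share in all 3 was 48.9% for shared promoters and 46.5% away from promoters.

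The median rank of single-gene promoter peaks in replicates 1, 2 and 3 was 1348, 1410 and 1360, against 1186, 1380 and 1419 for shared promoters and 1516, 1321 and 1542 away from promoters. The difference from shared promoters was 44.3 ± 112 places (SD, n = 3) and changed sign between libraries (2-sided exact sign-flip permutation test over libraries, p = 0.75). That from peaks away from promoters was −86.7 ± 152 places (same exact test, p = 0.5). With 3 libraries the smallest p this test can give is 0.25, so no difference could be called. In the combined list of the 3 libraries, single-gene promoter regions were 38 of the 100 strongest, 44.2% of the next 400 and 40.0% of the last 740 above the threshold. Below the threshold the share was 38.1% of ranks 2741 to 5000, and 26.4% and 22.3% of the 10000 regions up to ranks 20000 and 30000. Sequence within reach of the start sites of exactly 1 gene was 16% of the chromosomes analysed, or 21.4 Mb, and held 50.2 single-gene peaks per Mb. The same density was 116 per Mb in sequence within reach of several genes and 9.43 per Mb elsewhere.

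The replicate ranks of some single peaks differed widely. The ratio of the worst to the best rank had a median of 2.52 over the 941 peaks found in all lists, lay under 1.5 for 139 and exceeded 5 for 190. Of the stronger peaks, the steadiest after px were those of Shawn (1346, 1296 and 1277), Rtnl1 (36, 35 and 37), CG11151 (128, 136 and 131) and Hacl (649, 686 and 653). The widest ratio was that of a peak 436 bp upstream of nrv1, a beta subunit of the sodium pump, which ranked 184, 20561 and 874. A second peak of nrv1, 232 bp upstream, overlapped it and ranked 139, 77 and 145, so the gene had a strong region in every library. The summit matched to the farther peak in replicate 2 had an offset of −536 bp, at the limit of the 100 bp allowed for a match. Replicate 3 gave low places to CG7737 (282, 591 and 13411) and CG2924 (447, 2178 and 20908), and replicate 1 gave low places to CG4615 (15902, 499 and 408) and shn (7270, 711 and 281), a zinc finger cofactor of BMP signalling. The gaps were spread over the libraries. The highest rank of a peak fell in replicate 1, 2 and 3 for 310, 305 and 326 peaks. The lowest rank fell in replicate 1 for 375 peaks, in replicate 2 for 230 and in replicate 3 for 336.

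Summits lay mostly upstream of the start site, and the strongest lay farther upstream than the weakest. Of all single-gene promoter peaks 714 (66.3%) had their summit upstream, 2 at the site and 361 downstream, with a median of 91 bp upstream and an interquartile range from 269 bp upstream to 49 bp downstream. The 269 strongest had a median 180 bp upstream, and 81.4% of them lay upstream. The 270 weakest had a median 17.5 bp upstream, and 54.1% lay upstream. Summits 100 to 300 bp upstream were 39.8% of the strongest 269 and 19.6% of the weakest 270, whereas summits within 50 bp of the site were 10.4% of the strongest and 26.3% of the weakest. Since the rule used the distance, the overall distribution is a description, but the rule did not use the rank.

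**Figure D2:**
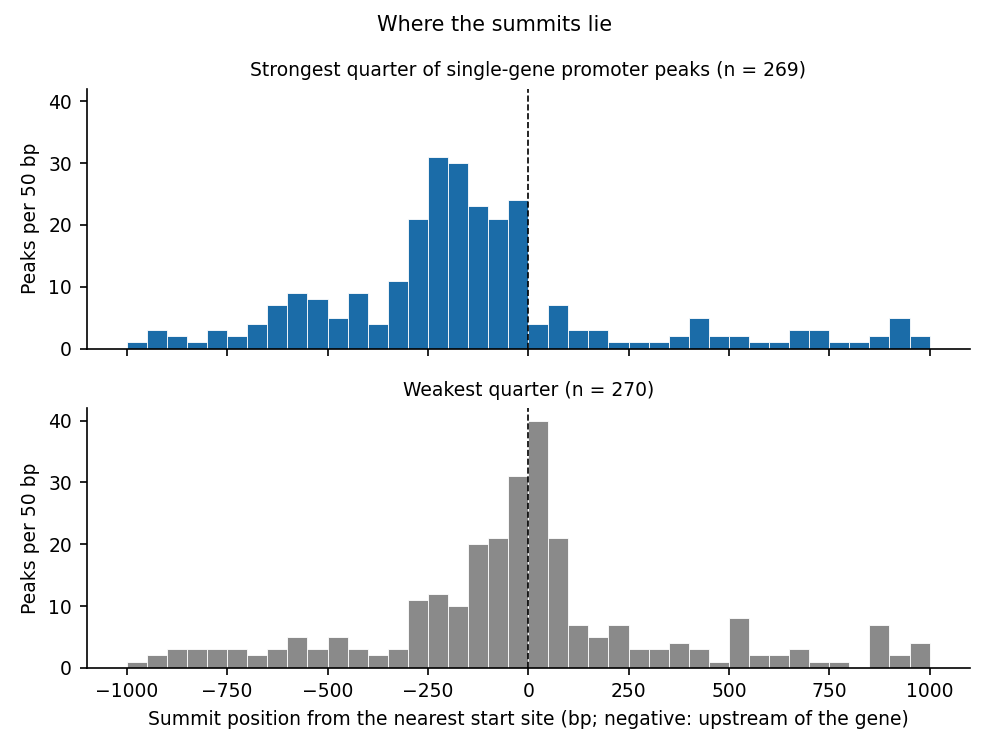
Number of single-gene promoter peaks per 50 bp of summit position from the nearest start site (bp, negative values upstream, dashed line at the site), for the 269 strongest above and the 270 weakest below. The strongest gather 100 to 300 bp upstream (39.8% of them), and the weakest gather at the site (26.3% within 50 bp).

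The same order of ranks was seen within each library for 3 zones of summit position. The 291 peaks with summits 100 to 300 bp upstream had median ranks of 943, 1010 and 898 in replicates 1, 2 and 3, against 1518, 2012 and 1708 for the 345 peaks with summits within 100 bp. The 190 peaks with summits 1 to 200 bp downstream had median ranks of 2050, 2258 and 1930. The upstream peaks therefore stood higher by 796 ± 214 places than those within 100 bp and by 1129 ± 109 places than those downstream (differences of −796 and −1129, SD, n = 3). The direction was the same in 3 of 3 libraries, and the 2-sided exact sign-flip test over libraries gave p = 0.25 for both, the smallest it can give. These zones were chosen after the offsets had been seen, and the zone within 100 bp overlaps the downstream zone, so the 2 differences are not separate results. Peaks in the last 100 bp upstream had median ranks of 1123, 1626 and 1587 in replicates 1, 2 and 3. Those between 200 and 100 bp upstream had 1150, 1070 and 1056, so in replicate 1 the peaks just upstream of the site were not weaker. In finer bins, the median rank in the thresholded list was 800 for the 118 peaks between 300 and 200 bp upstream and 1885 for the 154 peaks in the first 100 bp of the gene. Of these peaks, 44.1% and 7.14% were among the 269 strongest.

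**Figure D3:**
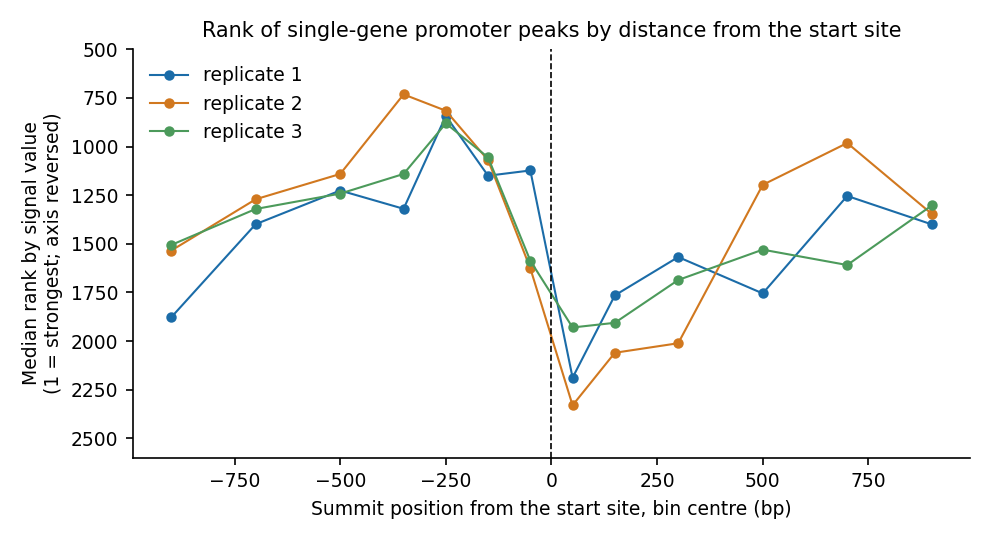
Median rank by signal value in each replicate list (axis reversed, 1 is the strongest) of single-gene promoter peaks, by the centre of the bin of summit position from the start site (bp, negative values upstream). All 3 libraries are near 850 between 300 and 200 bp upstream (843, 816 and 881) and at 1930 to 2330 in the first 100 bp downstream.

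The base composition moved with the same positions. The GC content within 100 bp of the summit averaged 38.2% (SD 7.02, over peaks) between 300 and 200 bp upstream and 48.7% (SD 6.06) in the first 100 bp of the gene, and it averaged 39.2% for the 269 strongest and 44.9% for the 270 weakest. Among peaks of lower and of higher GC content the difference from peaks within 100 bp was −529 and −625 places, and that from peaks downstream was −419 and −970 places. The difference from peaks downstream was thus smaller among peaks of lower GC content, and the part of base composition in it was not tested further. Replicate summits were matched only within 100 bp of the thresholded summit, which bounds their spread, and within 50 bp 625 peaks were matched in all lists, against 941. Among these 941 the 3 replicate summits of a peak spread over a median of 46 bp, within 20 bp for 180 peaks and over more than 100 bp for 88. Replicate summits placed 51.4%, 51.5% and 52.3% of the peaks within 200 bp of the start site (51.7% ± 0.476, SD, n = 3), against 51.6% by the thresholded summits.

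Single-gene promoter peaks lay farther from a start site than those at shared promoters. Within 200 bp lay 51.6% of them, against 87.0% of the shared promoter peaks, and beyond 500 bp lay 22.5%, against 4.12%. The median of the shared promoter peaks was 43 bp upstream of the nearest site. A peak within reach of several genes has more sites to be near to, and the part of this in the difference was not tested. At the edge of the window, CG43131, drongo and RhoGAP71E lay just inside, 1000, 999 and 999 bp downstream, with ranks 931, 1288 and 1936 in the thresholded list. C3G at 1005 bp downstream, RabGGTa at 1005 bp upstream and chif at 1009 bp upstream lay just outside, with ranks 751, 1343 and 127.

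Genes with a single-gene promoter peak were long and often had several start sites. They numbered 937 of 13945 protein-coding genes (6.72%), of which 819 had 1 such peak, 96 had 2 and 22 had 3. Their median length was 7671 bp, against 2166 bp for all protein-coding genes, and 42.2% were longer than 10 kb, against 14.2%. Several start sites were annotated for 60.1% of them, against 26.5% of all genes. Names that are only a CG number, which mark genes with little published work, made up 24.5% of them, against 43.7%. Genes with more start sites offer more sequence to the rule. Genes with a peak had on average 3226 bp within reach of them alone, against 1537 bp over all genes, and 1142 genes had none. The part of this in the figures for length and start sites was not tested.

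Of the 1077 peaks, 648 lay at genes whose start sites fall into several groups more than 100 bp apart, and of these 399 (61.6%) lay at an internal group and 249 at the outermost one. An even spread over the groups of the same genes would place 63.1% at internal ones. Peaks at internal start sites had a median rank of 1284, 1227 and 1258 in replicates 1, 2 and 3, against 1442, 1477 and 1387 at the first. Their median summit lay 147 bp upstream, against 80 bp. Summits fell in an intron of the gene itself for 363 peaks (33.7%, median rank 1089), between genes for 384 (35.7%, median rank 1250), in an untranslated exon of the gene for 248 (23.0%, median rank 1866) and in its coding exons for 25 (2.32%). The body of another protein-coding gene covered 98 summits (9.10%), some of which also lay in the gene itself. The start of a non-coding RNA lay within 1000 bp of 107 peaks (9.94%).

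Genes with several single-gene promoter peaks were 118 and held 258 of the peaks. At Ptpmeg2, a protein tyrosine phosphatase gene, 3 internal groups of start sites each had a peak, with summits 197, 189 and 215 bp upstream and ranks 70, 125 and 247. At dnc (dunce), which encodes a cAMP phosphodiesterase, the summits lay 284, 301 and 332 bp upstream of 3 internal groups, with ranks 76, 372 and 1388. At Rtnl1 they lay 283, 197 and 309 bp upstream, with ranks 33, 274 and 1175. Such similar offsets were not general, and those of Rtnl1 already spread over more than 100 bp. Of the 54 genes whose peaks all lay at different groups of start sites, 6 (11.1%) had offsets within 100 bp of each other. At ph-p the other peaks lay 402 and 95 bp downstream of their start sites with ranks 546 and 2398, far below the strongest at rank 15. The ecdysone-induced nuclear receptor gene Eip75B had summits 82 bp downstream and 121 and 725 bp upstream, with ranks 130, 1072 and 2165. The outermost summits of a gene were a median of 1132 bp apart, and 75402 bp apart at Svil.

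Each motif was searched for on both strands in the window from 100 bp before to 100 bp after the summit. The words were DRE (TATCGATA), its core CGATA, which also lies inside DRE, Motif 1 (GGTCACAC), the E-box (CAGCTG), Motif 6 (GTATNTTT), Motif 7 (CATCNCTA), the TATA box (TATAAA), the initiator (TCAGTT with its variants TCAGTC, then TCATTT and lastly TCATTC), the word of the GAGA factor (GAGAGAG), the homeodomain core (TAATTA), Hox-Exd pairs (TGATTAAT with its variants TGATTGAT and then TGATGGAT), Zelda (CAGGTA) and Pho (GCCATNTT). The GAGA word, bound by the GAGA factor Trl, was held by 118 single-gene windows (11.0%, exact 95% interval 9.15 to 13%). The share was 3.05% at shared promoters, 5.76% away from promoters, and 5.20% and 4.83% in windows 1000 bp upstream and downstream of the same summits. It was 4.71% in windows 91 bp upstream of the start sites of all protein-coding genes. In 39.0% of the single-gene windows with the word it lay within 50 bp of the summit, against 48.1% within 50 bp of the centre in the windows to either side. Peaks with the word were spread over the ranks, with 11.2% of the strongest 269 and 9.26% of the weakest 270.

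DRE, its core CGATA, Motif 1 and Motif 7 were rarer than at shared promoters and upstream of all start sites, but more frequent than in the windows 1000 bp away. DRE was held by 44 windows (4.09%), against 11.3% at shared promoters and 7.69% upstream of all start sites, and Motif 7 by 31 windows (2.88%), against 11.0% and 4.24%. CGATA was in 30.5% of windows, against 43.9% and 38.9%, and Motif 1 in 2.88%, against 4.73% and 4.78%. Motif 6 was in 8.73%, against 9.76% and 11.2%. The E-box was in 12.3%, against 15.9% and 12.2%, so it was not rarer than upstream of all start sites. In the windows 1000 bp upstream and downstream of the same summits DRE stood at 0.743% and 0.279%, Motif 7 at 1.02% and 1.11%, and CGATA at 23.9% and 22.8%. Away from promoters DRE was held by 0.298% of the windows. Peaks with DRE, Motif 1 or Motif 7 sat close to the start site. Of them 88.6%, 90.3% and 83.9% lay within 200 bp, against 51.6% of all single-gene promoter peaks. The strongest peak with DRE was that of Alg3 (29, 80 and 48 in the 3 libraries). That with Motif 1 was at RpL30 (95, 327 and 270), and that with Motif 7 at RpL11 (195, 587 and 209), which both encode ribosomal proteins.

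The TATA box was in 21.1% of single-gene windows, against 24.8% at shared promoters and 36.3% upstream of all start sites. In the windows 1000 bp upstream and downstream of the same summits it was in 22.9% and 21.1%, so it was about as frequent there. Of the peaks with it 41.9% lay within 200 bp of the start site, against 54.2% without it, and the word itself lay a median of 170 bp upstream of the site (offset −170 bp), farther than the usual place of a TATA box. The initiator words were in 41.8% of windows, against 38.4% at shared promoters and 49.8% upstream of all start sites. In the windows 1000 bp upstream and downstream they were in 41.6% and 37.7%. Words of homeodomain proteins, the class to which pb belongs, were not more frequent at the summits than 1000 bp to either side. TAATTA was in 11.5% (exact 95% interval 9.67 to 13.6%) of windows, against 13.5% and 11.6% in the windows 1000 bp upstream and downstream, and the Hox-Exd words in 2.04% (1.28 to 3.08%), against 2.51% and 3.34%. At shared promoters and upstream of all start sites TAATTA stood at 13.3% and 14.8%, and the Hox-Exd words at 2.29% and 2.97%. In windows at the start sites of all protein-coding genes TAATTA was less frequent, at 9.95%, and the Hox-Exd words were at 2.33%. The Zelda word was in 4.64% of single-gene windows, against 4.83% and 3.25% in those 1000 bp upstream and downstream. The Pho word was in 4.64%, against 3.71% and 2.97% there. The GC content averaged 42.2% in the single-gene windows, against 40.2% at shared promoters and 38.8% upstream of all start sites. It was 41.8% and 43.6% in the windows 1000 bp upstream and downstream. The part of base composition in the motif shares was not tested. A match is a run of letters and not a site shown to be bound.

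**Figure D4:**
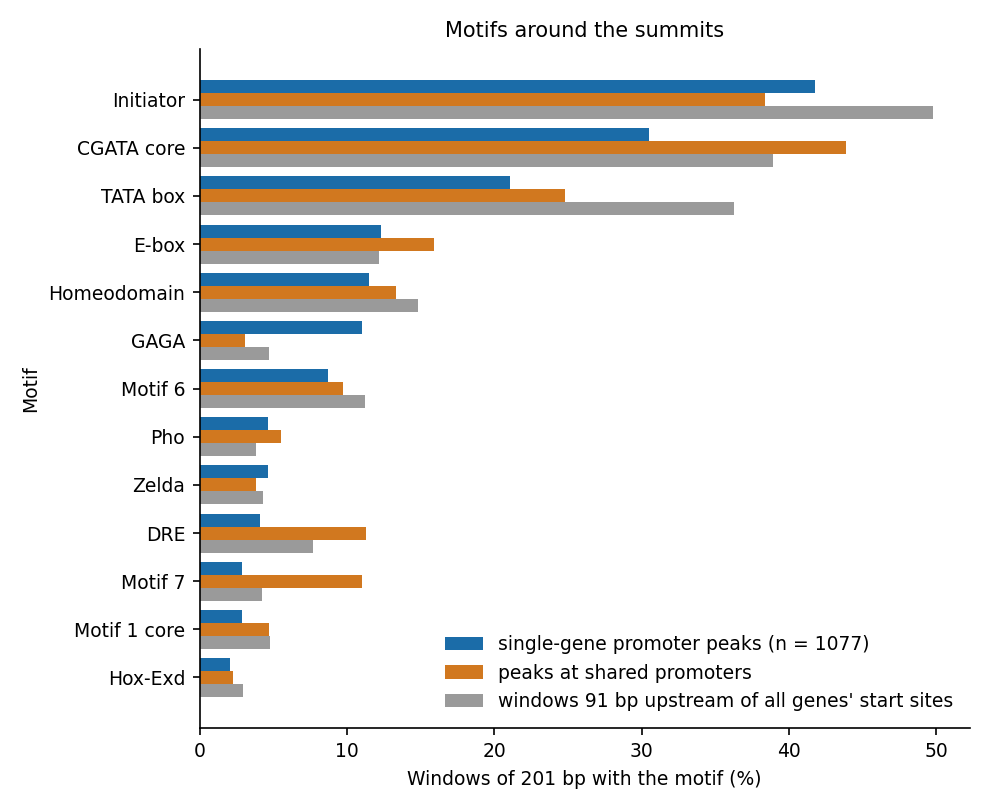
Share of windows holding each motif within 100 bp of their centre (%), for single-gene promoter peaks, peaks at shared promoters and windows 91 bp upstream of the start sites of all protein-coding genes. GAGA is at 11.0%, 3.05% and 4.71%, and DRE is at 4.09%, 11.3% and 7.69%.

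Gene lists were compared with the 6.72% of all protein-coding genes that had a single-gene promoter peak. The background in the 2740 strongest regions of replicates 1, 2 and 3 was 6.48%, 6.37% and 6.91%. The lists with the largest shares were those of axon guidance and neural adhesion with 11 of 27 genes (40.7%), salivary gland and tracheal regulators with 4 of 13 (30.8%), and EGF receptor, FGF and Raf signalling with 8 of 26 (30.8%). The counts in the libraries' own strongest regions were 8, 7 and 8 for axon guidance, 4, 3 and 6 for salivary gland and trachea, and 9, 9 and 7 for EGF receptor signalling. The rule had more sequence to work with at these lists. On average 91.3%, 99.1% and 75.1% of the sequence near the start sites of their genes was within reach of 1 gene alone. Over all genes this share was 61.2%, and its part in the differences between lists was not tested. The order of the lists depended on the width of the window. With start sites within 500 bp, axon guidance and cytoplasmic ribosomal proteins each had 40.7%, and JAK-STAT and Hippo signalling had 33.3%. The salivary gland and EGF receptor lists then had 23.1% each, against 6.58% of all genes. With 2000 bp, axon guidance had 44.4% and those lists had 30.8% each, against 6.17%. No list was tested, since the lists were chosen with earlier results of these data known.

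Ligands and receptors of signalling pathways were present. The EGF receptor ligand gene spi (123, 157 and 86) had its summit 171 bp upstream of an internal start site, and bnl, which encodes an FGF ligand of tracheal branching, ranked 444, 1323 and 1208 with its summit 36 bp upstream. The kinase gene Raf ranked 165, 127 and 197 with its summit 860 bp downstream. The guidance receptors unc-5 (1060, 418 and 1219) and robo2 (1086, 5251 and 642) and the adhesion genes Ten-a (409, 760 and 262) and Fas3 (616, 1393 and 6272) had summits within 100 bp of a start site. Fas3 and robo2 thus had 1 library each far below the others. Of the 11 guidance genes, 3 had a peak among the 1370 strongest (11.1% of the list, against 3.53% of all genes). Counting only peaks that were also among the 2740 strongest regions of both remaining libraries, the list had 4 genes without replicate 1 (14.8%, against 4.17% of all genes), 4 without replicate 2 (14.8%, against 3.67%) and 3 without replicate 3 (11.1%, against 4.00%). The median rank of its peaks in the thresholded list was 1838, and that of the EGF receptor list was 1304, against 1368 for all single-gene promoter peaks.

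Further pathway lists were smaller in number. JAK-STAT and Hippo signalling had 5 of 18 genes (27.8%), led by the tumour suppressor gene Mer (175, 392 and 681), the protocadherin gene ds (629, 455 and 500), kibra (635, 515 and 1210) and the transcription factor gene Stat92E (3383, 1610 and 913). Segment polarity, Hedgehog and Wnt genes had 7 of 26 (26.9%), with the Hedgehog receptor gene ptc (1299, 2064 and 989), the Wnt antagonist gene nkd (2840 and 1848 in replicates 1 and 2, not matched in replicate 3), the homeobox gene en (603, 3332 and 11217) and Wnt6 (7338, 973 and 3137). The libraries' own strongest regions gave 3, 5 and 8 genes. Of the 7, 1 had a peak among the 1370 strongest (3.85%, against 3.53% of all genes). With peaks among the strongest of both other libraries, 2 genes were counted without replicate 1 (7.69%, against 4.17%), 1 without replicate 2 (3.85%, against 3.67%) and 1 without replicate 3 (3.85%, against 4.00%), so the last 2 and the stronger peaks stood near the background. BMP signalling had 3 of 15, which were the SMAD gene Mad (131, 142 and 431), shn, and the repressor gene brk (647, 1305 and 3515). The Notch list had 3 of 14, which were the cell fate determinant numb (674, 1335 and 693), the coactivator gene mam (2853, 2428 and 649) and fng, which encodes a glycosyltransferase that modifies Notch (19627, 2309 and 3422).

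Tissue regulators included fkh (155, 228 and 122), the forkhead factor of the salivary gland, eyg (664, 1060 and 387) and the tracheal regulator trh (802, 10170 and 1506). Mesoderm and muscle regulators had 5 of 22 genes (22.7%), among them lbe (642, 1341 and 421), how (974, 826 and 1049) and Mef2 (1396, 8742 and 2835). The GATA factor gene pnr was matched in replicates 2 and 3, at 1657 and 3123. Of the neuroblast list 3 of 26 (11.5%) had a peak, and they were brat (378, 296 and 137), the neuronal RNA-binding protein gene elav (1066, 247 and 494) and the POU factor gene nub (2949, 3357 and 1819). Gap and head patterning had 2 of 16, bcd (884, 1014 and 1436) and cnc (1572, 2045 and 740), and the pair rule list had 2 of 10, Ten-m (18747, 2075 and 2000) and hry (16388 and 1804 in replicates 1 and 2). Ten-m and hry thus fell outside the strongest regions of replicate 1.

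Of the 8 Hox genes, lab and Dfd had a single-gene promoter peak and pb did not. lab ranked 5935, 4577 and 1308, and Dfd ranked 4203, 15250 and 3293, so both were weak, and neither remained among the 1370 strongest. None of the 7 Hox cofactors and other TALE homeobox genes had one in the thresholded list. The libraries' own strongest regions gave 2, 0 and 1 of the Hox genes, and 1, 0 and 1 of the cofactor list. The Polycomb and trithorax list had 5 of 25 genes with 8 peaks. Besides ph-p they were led by ph-d (367, 593 and 3239), Su(z)2 (1644, 2000 and 1136) and Psc (8387, 3760 and 1567). Insulator and chromatin architecture genes had 3 of 19, CTCF (2008, 1326 and 4176), mod(mdg4) (2842 and 2031 in replicates 2 and 3) and the kinase gene JIL-1 (9591, 1815 and 3113), none of them among the 1370 strongest. The death inducer hid (690, 359 and 290) and Diap1 (1198, 338 and 430), which encodes the caspase inhibitor that Hid antagonises, were 2 of 8 in the cell death list. The ecdysone list had 2 of 13, Eip75B and the coactivator gene tai (2091 and 4586 in replicates 2 and 3).

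Genes of general function differed among themselves. Cytoplasmic ribosomal proteins had 19 of 86 genes (22.1%), and 22, 19 and 19 in the libraries' own strongest regions. Their summits were a median of 21 bp from the start site, and 17 of 19 lay within 200 bp. Their median rank in the thresholded list was 608, against 1368 for all single-gene promoter peaks. RpL23A ranked 58, 112 and 123, and RpS4 ranked 173, 484 and 135. Of the 86 genes 46 (53.5%) were within reach of a shared promoter peak, against 8.98% of all genes, and the count of this list moved with the width of the window. With start sites within 500 bp it had 35 genes with a single-gene peak (40.7%, against 6.58% of all genes). With 2000 bp it had 11 (12.8%, against 6.17%). Translation factors had 7 of 52 (13.5%), all within 200 bp of the site, among them eEF1gamma with its summit 2 bp upstream, eEF1alpha1 (166, 479 and 728), eIF4A (758, 1261 and 1788) and eEF2 (1074, 1685 and 2232).

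Splicing factors had 3 of 38 (7.89%), which were mub (rank 55 in the thresholded list), the sex determination gene Sxl (1461, 666 and 2717) and ps (626 and 8736 in replicates 2 and 3). General transcription machinery had 4 of 63 (6.35%), which were the RNA polymerase II subunit gene Polr2F (236, 574 and 492), the TFIID subunit gene Taf4 (295, 910 and 459), TfIIA-S (347, 678 and 1405) and the Mediator subunit gene MED4 (598, 891 and 699). Heat shock proteins and chaperones had 2 of 35 (5.71%), Hsp27 (362, 229 and 216) and Hsp26 (4092, 1000 and 859). These 3 shares stood near the background of 6.72%. The cell cycle list had 1 of 34 (2.94%; Cdk4, at 4348, 1349 and 3381), but 3 genes (8.82%) in the strongest regions of replicates 1 and 2 each, above their backgrounds, and 1 in those of replicate 3. Below the background were oxidative phosphorylation with 2 of 80 (COX7AL2, at 670, 801 and 416, and ATPsynC, at 2196, 1594 and 570) and cytochrome P450 with 1 of 83 (Cyp310a1, at 2091, 1579 and 1702).

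No gene had a single-gene promoter peak among 73 mitochondrial ribosomal proteins, 48 proteasome subunits, 119 odorant and gustatory receptors and 110 cuticle proteins. For the mitochondrial ribosomal proteins, on average 24.8% of the sequence near their start sites was within reach of them alone, against 61.2% over all genes, and 16 of them were within reach of a shared promoter peak. For the proteasome subunits the same share was 44.1%, and 4 of them were within reach of a shared promoter peak. For the receptors and the cuticle proteins the share was 75.2% and 77.9%, and 1 gene of each list was within reach of a shared peak.

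**Figure D5:**
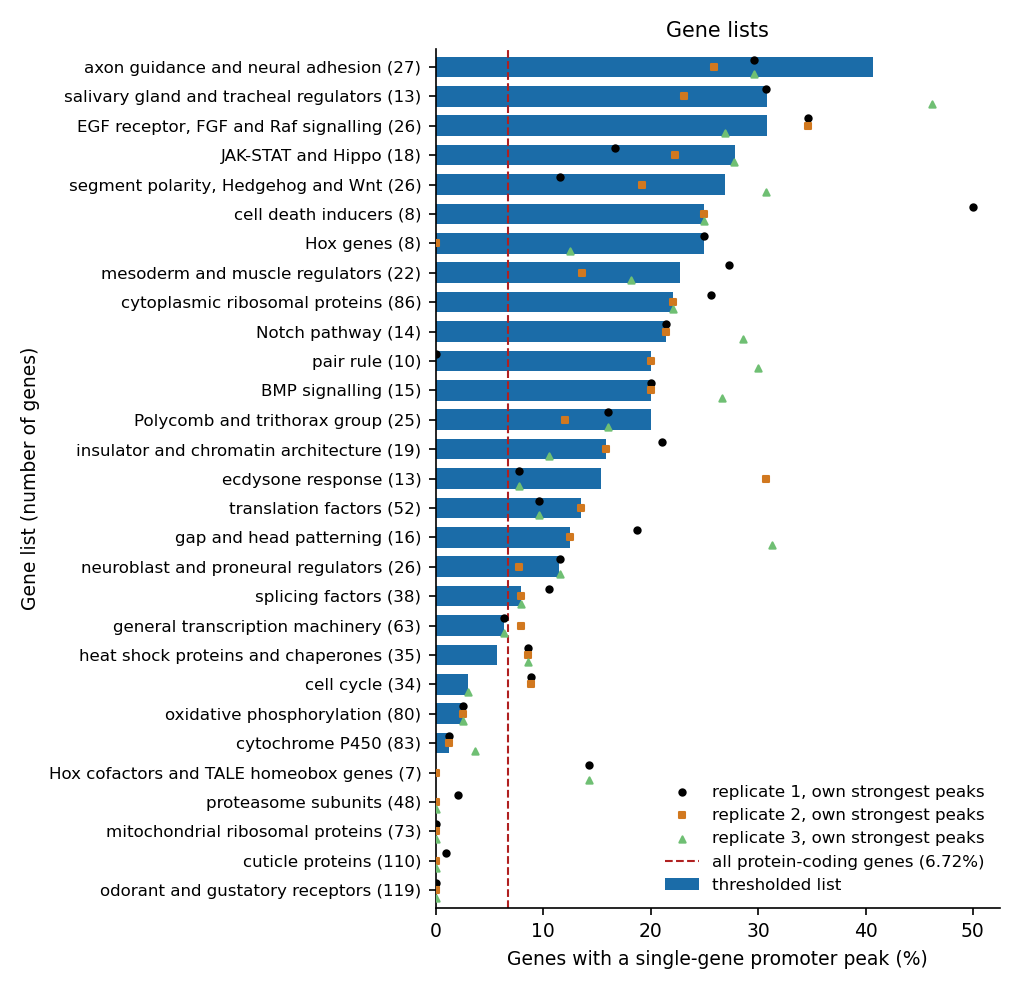
Share of each gene list with a single-gene promoter peak (%, number of genes in brackets), with bars for the thresholded list and symbols for the libraries' own 2740 strongest regions. The dashed line is the 6.72% of all protein-coding genes, the axon guidance bar reaches 40.7%, and the lists of receptors, cuticle proteins, mitochondrial ribosomal proteins and proteasome subunits are at 0.

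The share of protein-coding genes with a single-gene promoter peak was 7.92% on the X chromosome (174 of 2196), and on the large autosomal arms it ran from 5.88% on 3L (161 of 2739) to 7.05% on 2R (2852 genes). Of 80 genes on chromosome 4, 4 had one. Among the thresholded peaks of an arm, 33.9% on 3L and 43.6% on 2R were of this class. In the libraries' own lists of 2740, single-gene promoters took 37.9%, 37.9% and 40.7% of the peaks (38.8% ± 1.62, SD, n = 3) and belonged to 904, 888 and 963 genes. Of these genes 691, 768 and 731 also had a peak in the thresholded list, which is 76.4%, 86.5% and 75.9% of each library's genes and 73.7%, 82.0% and 78.0% of the 937.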

How the data were processed

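Per the labels, the data are ChIP-seq of 3 biological replicates of pb-GFP embryos, each called against 1 control. The authors deposited narrowPeak lists of peaks and background, of 30000 regions per replicate and for the combined libraries, and the list thresholded on the irreproducible discovery rate. Of the deposited values, the signal was used as ranks within a list, and the −log10 q (3.76 for all 2740 thresholded peaks) only to check its ceiling. The sources used here name neither the aligner nor the peak caller, and read depth is unknown. The replicate lists shared no identical region.

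Start sites came from the Ensembl release 115 annotation (FlyBase 6.54) on dm6, and sequence from RefSeq Release 6. Offsets were taken to the nearest start site of the gene. Replicate regions were matched by summits within 100 bp. Start sites up to 100 bp apart formed 1 group. Differences between classes were tested by the 2-sided exact sign-flip permutation test over libraries. Intervals are exact (Clopper-Pearson) at 95%. The method was tested on simulated start sites, peaks and sequences. Analyses used Python 3.11.15, numpy 2.4.6, pandas 2.3.3 and scipy 1.17.1.

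The peaks, the 29 gene lists and the 13 motifs were chosen with earlier results of these data known. Genes were named by rule: the 20 strongest peaks found in all lists, up to 4 genes per list, the 5 genes with most peaks (the first of 22 with 3), the 5 steadiest and 5 least steady ranks among the stronger members, those nearest the window's edge and the strongest with each motif. Svil and Hgsnat were named after their values were seen. Alternatives were other windows, matching distances, start sites and motif windows, the 1370 strongest peaks, and leaving out each replicate.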

Additional observations from a re-analysis of the deposited data

How the results depend on the processing

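An alternative was taken to stay near the value reported when a count was within 1.5 times of it, the share within 200 bp within 0.476 points (the SD between libraries), a motif share inside its exact interval, and a rank difference of the same sign, whatever its size. By these unequal rules 47 alternatives to the main values stayed near, 12 moved and 2 changed sign, and of those per motif and per list 198 of 313 stayed near. The number of single-gene promoter peaks was 991 with a window of 500 bp, 1055 with 2000 bp, 1050 with the start sites of all genes and 813 with only the outermost start site. Among the 1370 strongest peaks it was 539, of which 506 were found in all 3 lists and 48.1% lay within 200 bp of the start site. With these, 59 genes of the gene lists had a peak (5.35% of them, against 3.53% of all genes). With all peaks there were 104 (9.44%, against 6.72%). Summits within 50 bp matched 625 peaks in all lists, against 941, and leaving out each replicate gave 962 to 994. The share within 200 bp was 52.3% by the summits of replicate 3 and 51.8% to 52.2% when each replicate was left out. The difference in median rank from shared promoters was −18.5 places among the 1370 strongest and ran from −14.8 (without replicate 1) to 96.2 without each replicate, against 44.3, so its sign was not stable. That from peaks away from promoters ran from −174 to −39.0. At least 1 of the 13 motifs was held by 59.1%, 85.1% and 97.4% of windows that reach 50, 100 and 200 bp to either side of the summit. This share was not set beside one from comparison windows, so it is not a property particular to these peaks. The initiator words alone were in 41.6% and 37.7% of the windows 1000 bp upstream and downstream. Genes of the lists with a peak numbered 58 to 66 when each replicate was left out, by keeping only peaks among the strongest of both other libraries, which makes the set smaller. They were 5.26% to 5.99% of the genes of the lists, against 3.67% to 4.17% of all protein-coding genes. The rank differences by position, chosen after seeing the data, were −906 to −692 from peaks within 100 bp and −1177 to −1070 from peaks downstream without each replicate, −655 and −1038 at first start sites, and −992 and −1173 at internal ones. The sign-flip test paired groups of peaks within each library. Samples could not be paired across conditions, because they form a single group. The read depth is unknown, so small differences in signal cannot be weighed against counting error, and the exact sign-flip test over 3 libraries allows no p under 0.25.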

Other observations

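Words of 6 letters were counted in the same windows with no motif in mind, and the most enriched and most depleted were picked after the values were seen, so they are given as a description with no test. ACAGTG (or its reverse complement) was in 18.9% of the single-gene promoter windows, against 8.87% of windows 1000 bp to either side and 9.57% of windows upstream of all start sites. CGCACA was in 19.1%, against 12.4% and 8.72%, and GAGCGA in 17.2%, against 9.52% and 9.18%. AGAGAG, which overlaps the GAGA word, was in 19.1%, against 11.4% and 10.5%. Words rich in A and T were rarer than upstream of all start sites, with ATAAAA in 32.0%, against 32.0% and 44.0%. The GC content averaged 42.2% in the single-gene windows, against 38.8% upstream of all start sites. The part of base composition in the shares of these words was not tested.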
